A study of Mus musculus with 10 samples.

Results

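The brain-restricted transcripts described here are 112 of the 3126 alternative splicing events on a mouse splicing array, or 3.58% of all events. They were chosen by measured values: in each, the level in brain exceeded the highest level of the other 9 tissues by 1.0 unit or more. Since the brain values chose them, everything set between brain and the other tissues below is a description of these 10 samples and is given with no test.

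Each event had 7 probes. An event consists of an alternative exon (A) between 2 flanking exons, C1 on one side and C2 on the other, and each of the 3 exons had a probe in its body. Junction probes covered the inclusion connections C1:A and A:C2 and the skipping connection C1:C2. The target of the last probe, named INT, is not stated in these sources. The level of an event is the mean of C1 and C2, the exons that both isoforms share.

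Alternative exons of this kind are cassette exons, which the spliceosome either joins to both neighbours or leaves out together with the surrounding introns. Brain is known for its large number of regulated cassette exons, many of them under RNA-binding proteins enriched in neurons, such as those of the Nova and Rbfox families, Ptbp2 and Srrm4. A transcript can be restricted to brain and still be spliced in more than one way there, so its abundance and its exon choice are separate measurements.

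Brain was set against testis, liver, kidney, heart, muscle, lung, intestine, spleen and salivary, named as in the labels. Each was 1 pooled total RNA sample from CD1 mice, which are an outbred stock. The labels state neither the age or sex of the mice nor how many animals were pooled. With 1 sample per tissue there was no replicate error. In bulk tissue, fewer cells of a type and less RNA per cell cannot be told apart.

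The deposited values ran from 0 to 8.66 on a compressed scale whose base is not stated, so no fold changes are given and a unit is 1 step of that scale. Each array was centred on its own median (2.19 for brain, down to 2.04 for salivary), so that 0 below means the median probe of that array. Between 0.635% and 3.33% of the probes of an array were listed at 0 before centring, which is the floor of the scale. The table gives event numbers without gene names, positions or sequences. The events are therefore called by their numbers, whether several of them belong to 1 gene is not known, and the brain label was not checked against marker genes.

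By the same rule testis had 252 restricted events, liver 66, kidney 34, heart and intestine 29 each, spleen 25, lung and salivary 17 each, and muscle 11. Brain thus held the second longest list. The members' levels ranked by how far brain stood above the other tissues are shown as a map.

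**Figure D1:**
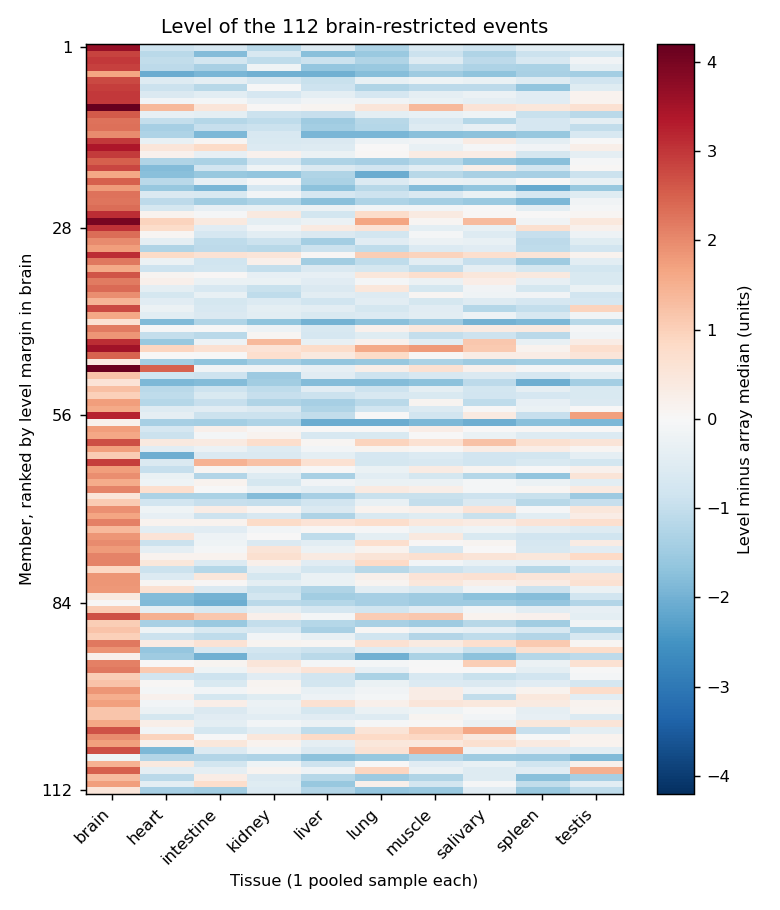
Level (mean of C1 and C2, in units relative to the array median) of the 112 brain-restricted events in 10 tissues, 1 pooled sample each, ranked from the widest to the narrowest margin. The brain column runs from -0.18 to 4.19, and the highest level outside brain is 2.48, in heart in Ben4004.

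The level margin, which is the brain level minus the highest level elsewhere, had a median of 1.502 units over the members, with 1.19 and 2.27 as the quartiles. It reached 1.5 in 56 members, 2 in 33, 3 in 4 and 4 in 1. Brain levels ran from -0.18 to 4.19 with a median of 1.94, and the highest level elsewhere from -1.35 to 2.48 with a median of 0.15. In the other tissues the median level of the members lay between -0.63 in liver and -0.30 in salivary, below the median of all events in every one of those arrays, which was 0.34 to 0.51 over the 10 tissues. At the edge of the list, Ben4021 and Ben321 had margins of 1.02 and 1.02 and were members, while Ben452 and Ben368 had margins of 0.987 and 0.978 and were not.

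Ben719 had the widest margin. Its level was 3.64 in brain, against -0.43 in testis, -0.44 in spleen, -0.86 in heart, -0.86 in salivary, -0.60 in liver, -1.14 in kidney, -0.67 in muscle, -1.30 in lung and -0.72 in intestine. Brain alone was above the array median, and the other 9 tissues lay within 1 unit of one another. Each of its 6 exon and junction probes was highest in brain and past the margin: C1 was 3.75 in brain against at most -0.39 elsewhere, and A was 3.17 in brain against at most 0.19 elsewhere. The C1:A junction stood at 3.30 in brain and at most -0.23 elsewhere, A:C2 at 3.69 in brain and at most -0.18 elsewhere, and C1:C2 at 3.36 in brain and at most -0.37 elsewhere. Both inclusion junctions and the skipping junction were thus at their highest in brain, while INT was 0.80 in brain and higher in heart, at 1.61.

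Ben300 had the next widest margin, 3.51 units, and its alternative exon was not highest in brain. Its level was 2.84 in brain and at most -0.66 elsewhere, in kidney. The A probe was 1.11 in brain, against 2.50 in salivary, 1.09 in heart, 0.84 in intestine and between -0.82 and 0.79 in the other tissues. The C1:A junction was -0.32 in brain, the lowest of all 10 tissues, against 2.47 in salivary, 1.80 in heart and 1.72 in spleen. The other inclusion junction went the other way, with A:C2 at 0.64 in brain and at most -0.56 elsewhere, and C1:C2 was 0.98 in brain and at most 0.38 elsewhere. The flanking exons, A:C2 and C1:C2 of Ben300 were thus highest in brain, and A and C1:A were not.

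The highest brain levels were those of Ben3934, at 4.19, and Ben4004, at 4.16. Ben3934 was next highest in muscle, at 1.37, and Ben4004 in heart, at 2.48, which was the highest level of any member outside brain. At the other end Ben1039 had a brain level of 0.05 and Ben4288 of -0.18. Ben4288 was the only member whose brain level lay below the array median, and it passed the rule because its highest level elsewhere was -1.22, in heart.

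To ask how many members carried signal well above the weak probes, both flanks were set against the 95th percentile of the INT probes of the same array, which was 0.874 in brain and between 0.697 in liver and 1.36 in salivary over all arrays. By this measure the flanks were detected in brain in 86 of the 112 members and not in 26, against 26% of all events (813) in brain and 255 to 1070 events in the other arrays. The members were chosen for high flanks in brain, so nothing is read from the comparison. Outside brain they were detected in no tissue in 102 members, in 1 tissue in 6 and in 2 tissues in 4. In all, 76 members were detected in brain and in none of the other 9 tissues. The rule puts the level of every other tissue at least 1.0 below brain, so absence elsewhere is partly set by the choice. The same counts over all events were not computed. The 10 members detected elsewhere involved heart 4 times, muscle 3 times, kidney and lung 2 times each, intestine, liver and testis 1 time each, and salivary and spleen never. Over all 3126 events the flanks were detected in 255 in salivary, 437 in muscle, 449 in spleen, 450 in lung and 695 in intestine. The counts were 800 in testis, 919 in heart, 1001 in kidney and 1070 in liver, so the tissues are not ranked by the members' counts.

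The tissue with the next highest level varied among the members. Testis came second in 27 members (24.1%), kidney and salivary in 19 each, muscle in 14, heart in 11, lung in 10, intestine and spleen in 5 each and liver in 2. Over the 440 events with the highest level in brain, whatever the margin, testis came second in 18% and kidney in 14.1%. The shares there were 13.2% each for salivary and heart, 13% for muscle and 10.7% for lung. Liver came second in 6.36%, spleen in 5.91% and intestine in 5.68%. For most members this rank lay among weak values, since only 10 had both flanks detected in any tissue other than brain.

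The probes that the rule did not average were then examined. Past the margin of 1.0 in brain were A in 59 members (52.7%), C1:A in 49 (43.8%), A:C2 in 56 (50%) and C1:C2 in 51 (45.5%). Over all events the shares were 3.49% for A, 3.13% for C1:A, 3.58% for A:C2 and 2.75% for C1:C2. These probes lie in the same transcripts and the same contrast as the rule, so the higher shares among members are not read further. The flanks themselves were past the margin in 84 members for C1 and 87 for C2, against 3.17% and 3.87% of all events. INT was past it in 1 member (0.893%), against 0.544% of all events.

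The probe for the alternative exon was highest in brain in 83 members, C1:A in 76, A:C2 in 82 and C1:C2 in 81. Over all events these probes were highest in brain in 13.2% for A, 12.7% for C1:A, 13.1% for A:C2 and 11.1% for C1:C2. The median margins were 1.08 for A, 0.72 for C1:A, 0.99 for A:C2 and 0.91 for C1:C2, against medians between -0.98 and -1.02 for the same probes over all events. The INT probe was highest in brain in 30 members, against 10.6% of all events, with a median margin of -0.42 against -0.65 over all events. Margins of the exon and junction probes of the members spread widely around these medians, from -1.56 to 3.29 for A and from -3.79 to 3.55 for C1:A, as the plot by probe kind shows.

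**Figure D2:**
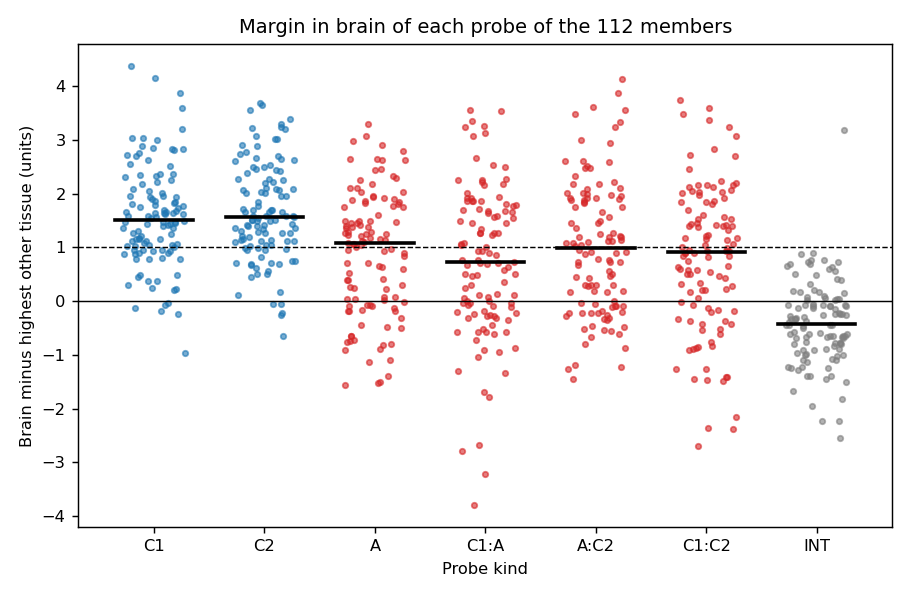
Margin in brain (brain minus the highest other tissue, in units) of each of the 7 probes of the 112 members, with 1 point per member and a black bar at the median; the dashed line marks 1.0. C1 and C2 chose the members and sit highest, A and the 3 junctions spread to both sides of 0, and INT has a median of -0.42.

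In 13 members all 6 exon and junction probes were past the margin, or 0.416% of all events. An event with both flanks past the margin is a member by the rule, so no event outside the list could have this property. They were Ben719, Ben1222, Ben1492, Ben2404, Ben2255, Ben101, Ben2769, Ben2628, Ben2328, Ben2908, Ben4004, Ben3701 and Ben57, with level margins from 1.41 to 4.07. At the opposite end, 17 members had none of A and the 3 junctions past the margin, while 30 had 1, 26 had 2, 23 had 3 and 16 had all 4 of these probes past it. The flanks chose the members and these 4 probes did not, so a shortfall of these probes is partly set by the choice. Both flanks themselves were past the margin in 62 of the 112 members. The counts are therefore not read as a trait of the transcripts.

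Ben1222 had the widest C1:A margin, 3.55 units. This junction was 3.43 in brain and between -1.04 and -0.11 elsewhere, its skipping junction was 2.94 in brain and at most -0.43 elsewhere, and A was 1.68 in brain and at most -0.97 elsewhere. The first flanking exon of Ben1222 was less restricted, at 3.04 in brain and 1.45 in salivary. Ben4004 kept its second tissue through every exon and junction probe, with A at 3.93 in brain, 2.07 in heart and at most -0.37 elsewhere. Its A:C2 junction was 4.24 in brain, 2.35 in heart and at most -0.19 elsewhere.

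The junctions separated the members into classes by which connections were past the margin in brain. Both inclusion junctions without the skipping junction were past it in 16 members (14.3%, against 1.02% of all events), and the skipping junction without both inclusion junctions in 30 (26.8%, against 1.95%), of which 22 had no inclusion junction past it and 8 had 1. All 3 junctions were past it in 21 (18.8%, against 0.8%). The remaining 45 (40.2%, against 96.2%) had neither the skipping junction nor both inclusion junctions past it, and 23 of them had 1 inclusion junction past it. As with single probes, these classes lie in the contrast that chose the members.

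The probe in the alternative exon, a separate measurement, was past the margin more often where the inclusion junctions were. A was past the margin in 13 of the 16 members with only the inclusion junctions, in 16 of the 21 with all 3, in 21 of the 45 with neither and in 9 of the 30 with the skipping junction but not both inclusion junctions. Its median margin was 1.85 in the inclusion class, 1.81 in the class with all 3 junctions and 0.13 in the skipping class. Over the 112 members the margin of A had a Pearson's r of 0.64 with the mean margin of both inclusion junctions and of 0.01 with the margin of C1:C2, against 0.83 and 0.57 over all events. These are descriptions across events of the same 10 arrays, and the A probe shares its exon with both inclusion junctions.

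**Figure D3:**
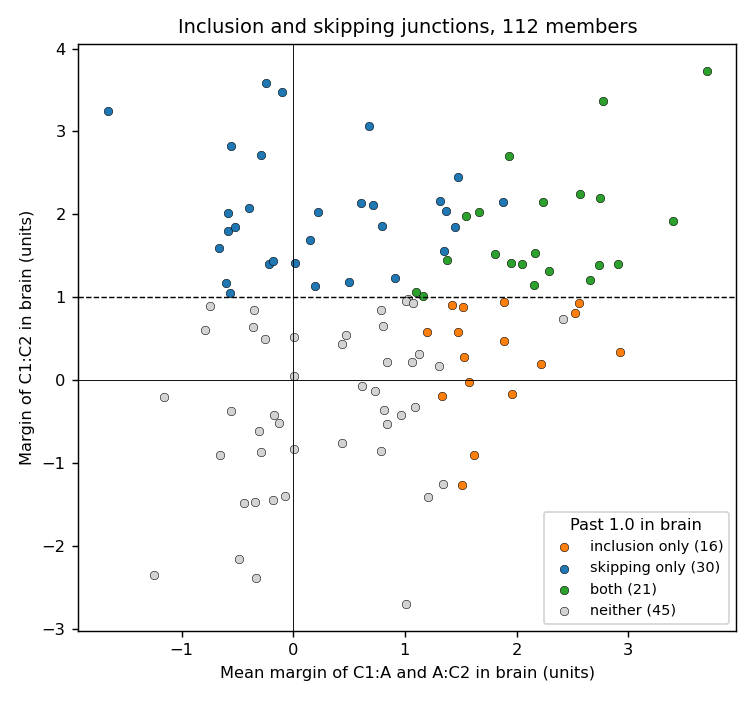
Margin in brain of the skipping junction C1:C2 (vertical, units) against the mean margin of the inclusion junctions C1:A and A:C2 (horizontal, units) for the 112 members, coloured by the junctions past 1.0. The 30 members with the skipping junction but not both inclusion junctions spread from below 0 to above 1 along the horizontal axis, and the 16 inclusion-only members lie below 1 on the vertical axis.

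Of the 59 members with A past the margin, 29 had both inclusion junctions past it as well, 21 had 1 and 9 had none. Of the 53 with A not past it, 8 had both, 10 had 1 and 35 had none. In 3 members both inclusion junctions were past the margin although A was not higher in brain than elsewhere. The body probe and the junction probes thus gave the same reading in many members but not in all of them.

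A was highest outside brain in 29 members, and 16 of these had the skipping junction past the margin in brain. In 6 members A was lower in brain than in another tissue by 1.0 or more, with the highest value in salivary in Ben300, Ben3316 and Ben2552, in heart in Ben1300, in kidney in Ben973 and in spleen in Ben170. Ben1300 and Ben2552 were the extremes. In Ben2552 the level was 2.09 in brain and at most 0.85 elsewhere, in lung, A was -1.43 in brain and at most 0.10 elsewhere, in salivary, and C1:C2 was 1.65 in brain and at most -0.19 elsewhere. In Ben1300 A was -1.90 in brain, against -0.34 in heart, but C1:A was 2.23 in brain and at most 0.88 elsewhere. The A probe and the inclusion junctions of Ben1300 therefore differed in which tissue was highest.

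Exon choice was next compared between tissues by a junction index, which subtracts C1:C2 from the average of both inclusion junctions and in which an equal change of all 3 junctions cancels. An exon was called more included or more skipped in brain where its index departed from the median of the other 9 tissues by 1.61 units or more and A, relative to the flanks, departed the same way. By this rule 9 members (8.04%, against 1.73% of all events) were called more included and 14 (12.5%, against 1.54%) more skipped. The part of the rule that uses A relative to the flanks is not independent of how the members were chosen, since high flanks lower it: it was below the other tissues in 80 of the 112 members, with a median of -0.68. The junction index was below the other tissues in 47 members, with a median of 0.35. In 5 further members the junction index passed the threshold but A relative to the flanks departed the other way. In all 5 the index was higher in brain: Ben2843 (2.96), Ben4317 (2.64), Ben170 (2.06), Ben861 (1.77) and Ben2253 (1.71). The larger number of more skipped members is therefore not read as a lean to skipping.

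None of the 9 more included members was detected outside brain, and 2 of the 14 more skipped members were. For the other 21 the comparison index comes only from tissues where the flanks were not both detected. The remaining 2, Ben44 and Ben145, were detected in 1 other tissue each, so their comparison index, too, rests mostly on such tissues. The calls for all these members are therefore given as patterns of probe values. Junction values were not weak outside brain in all of them: in Ben2226 C1:C2 was 2.76 in brain and between 2.09 and 3.29 in the other 9 tissues.

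Ben3013 was the most included by the index, at 3.05 above the other tissues. Its A probe was 2.77 in brain, against -0.52 in lung, -0.84 in kidney and between -2.10 and -1.23 in the other tissues. The junctions C1:A and A:C2 were 3.23 and 3.42 in brain and at most 0.98 and -0.18 elsewhere, while C1:C2 was 1.38 in brain and between -0.04 and 1.04 elsewhere. The alternative exon and its connections were high in brain, and the skipping junction stood only 0.34 above lung. The second flank, C2, was 3.11 in brain and also above the array median in all other tissues, from 0.16 in liver to 1.89 in heart.

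Ben3150 had a similar pattern, with an index 2.77 above the other tissues. A was 2.49 in brain and at most 0.53 elsewhere, C1:A was 2.45 in brain and at most 0.54 elsewhere, both in lung, and C1:C2 was -0.58 in brain and -0.42 in kidney. In Ben3443 A was 3.54 in brain, 0.46 in testis and at most -0.63 elsewhere, A:C2 was 2.36 in brain and at most -0.22 elsewhere, and C1:C2 was 0.16 in brain and -0.04 in muscle. In these 2 members, too, the skipping junction was near its value in another tissue while the exon and its junctions were past the margin in brain.

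The other more included members were Ben2716 (2.99), Ben4021 (2.79), Ben4184 (1.89), Ben1315 (1.70), Ben3504 (1.70) and Ben2226 (1.66), each value being the departure of the junction index. Ben2716 was weak, with a brain level of 0.18, and its flanks were not detected in brain. Its C1:C2 junction was -0.20 in brain, below 8 of the other 9 tissues, where it reached 1.05. Ben4184 had the highest departure of A relative to the flanks among the members, 1.69 units. In Ben2226 A was 3.45 in brain and at most 0.66 elsewhere, but C1:A was 1.65 in brain and 2.57 in heart, and its skipping junction, given above, was also highest in heart. Over the 9 more included members the median margin was 1.96 for A and 0.20 for C1:C2, and A was past the margin in 8 of them. These values partly follow from the call, which uses the same probes.

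The 14 more skipped members had the opposite composition. C1:C2 was highest in brain in all 14, A was highest in brain in 4 and past the margin in 1. Relative to the median of the other tissues, C1:C2 was higher in brain by a median of 3.30 units and the flanks by 2.39 (C1) and 3.17 (C2), while the differences were 0.15 for A, 0.73 for C1:A and 0.19 for A:C2. In these members the flanks and the connection between them were brain-restricted together, and the exon and its junctions stood less than 1 unit from the other tissues at the median. The call itself selects C1:C2 high against the inclusion junctions and A low against the flanks. This composition therefore partly restates the call and is given as a description only.

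Ben3726 was the most skipped by the index, at -4.27. C1:C2 was 3.50 in brain, 0.78 in intestine, 0.01 in testis and between -1.91 and -0.20 in the other 7 tissues. A was 0.59 in brain, which lay among the other tissues (-0.39 in liver to 1.505 in salivary). C1:A was 0.21 in brain and -0.51 to 0.31 elsewhere, and A:C2 was 0.38 in brain and -0.12 to 0.86 elsewhere. Of the 4 probes that report on splicing, the skipping junction alone set brain apart in Ben3726.

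Ben3317 showed the same, with an index at -3.69: C1:C2 was 2.68 in brain and at most -0.79 elsewhere, and A was -0.99 in brain and -1.03 in kidney. In Ben1960 the skipping junction had its second widest margin of all members, at 3.22 in brain against -0.36 in kidney and lower values elsewhere. Here A was also past the margin, at 0.68 in brain against -0.73 in spleen. The other more skipped members were Ben2008 (-3.19), Ben1189 (-2.89), Ben2552 (-2.83), Ben3316 (-2.72), Ben2788 (-2.66), Ben25 (-2.65), Ben2426 (-2.61), Ben44 (-2.40), Ben145 (-2.01), Ben327 (-1.74) and Ben2738 (-1.62). The flanks of Ben25 were not both detected in brain. Ben2738 had the lowest departure of A relative to the flanks among the members, -3.82 units, with A at 0.71 in brain and 1.44 in muscle.

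Splicing could be compared between tissues directly only where the same transcript was detected in both. This held for 14 pairs of brain and another tissue, from 10 members. The junction index was lower in brain by 1.61 or more, with A relative to the flanks lower too, in 2 of the 14 pairs, and higher in both measures in 2. Over all events, 3057 pairs of brain with another tissue met the same condition, and the shares were 2.36% lower and 4.51% higher.

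Ben44 was detected in both brain and testis, with levels of 3.23 in brain and 1.72 in testis. The skipping junction was 2.31 in brain, against 0.51 in testis and at most -0.43 in the other 8 tissues. The exon and its junctions were lower in brain than in testis: A was 0.43 in brain and 1.07 in testis, C1:A was 0.08 in brain and 0.68 in testis, and A:C2 was -0.03 in brain and 0.53 in testis. The index was -2.29 in brain and 0.10 in testis, a difference of -2.38, and A relative to the flanks differed by -2.16. The flanks of Ben44 were thus higher in brain than in testis while its alternative exon was lower.

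Ben145 was detected in brain and kidney, with levels of 3.10 in brain and 1.35 in kidney. C1:C2 was 3.72 in brain and 1.11 in kidney, with 1.59 in testis and 1.32 in salivary. C1:A was 0.91 in brain and 0.43 in kidney, and A:C2 was 0.77 in brain and 0.04 in kidney. The index was -2.88 in brain and -0.87 in kidney, a difference of -2.01, and A relative to the flanks differed by -0.75. All 3 junctions of Ben145 were higher in brain than in kidney, the skipping junction by most.

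Ben2843 went the other way. It was detected in brain (2.90), intestine (1.47) and kidney (1.23). C1:A was 2.40 in brain, 0.49 in intestine and 0.43 in kidney, and A:C2 was 1.20 in brain, -0.53 in intestine and 0.09 in kidney. C1:C2 was -0.77 in brain, 0.50 in intestine and 0.00 in kidney, so the skipping junction was lowest in brain and both inclusion junctions were highest there. The index was 2.57 in brain, -0.52 in intestine and 0.26 in kidney, so that brain stood 3.09 above intestine and 2.31 above kidney. A relative to the flanks was higher in brain by 0.51 against intestine and by 0.10 against kidney, and against the median of all 9 other tissues it was lower by 0.29, for which reason Ben2843 is not among the 9 members called more included.

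In the remaining 10 pairs the index differed by less than the threshold. In Ben2102 it was 1.90 in brain, 1.42 in lung and 1.27 in muscle, and in Ben4004 it was 1.30 in brain and 0.75 in heart. In Ben101 it was -0.58 in brain, -1.11 in heart and -1.18 in lung, and in Ben181 it was -0.05 in brain and -0.03 in muscle. The widest of these differences was 1.55, in Ben3934 between brain and muscle. A difference below the threshold does not show that the splicing of these transcripts was alike, since 1 array per tissue gives no error for it.

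**Figure D4:**
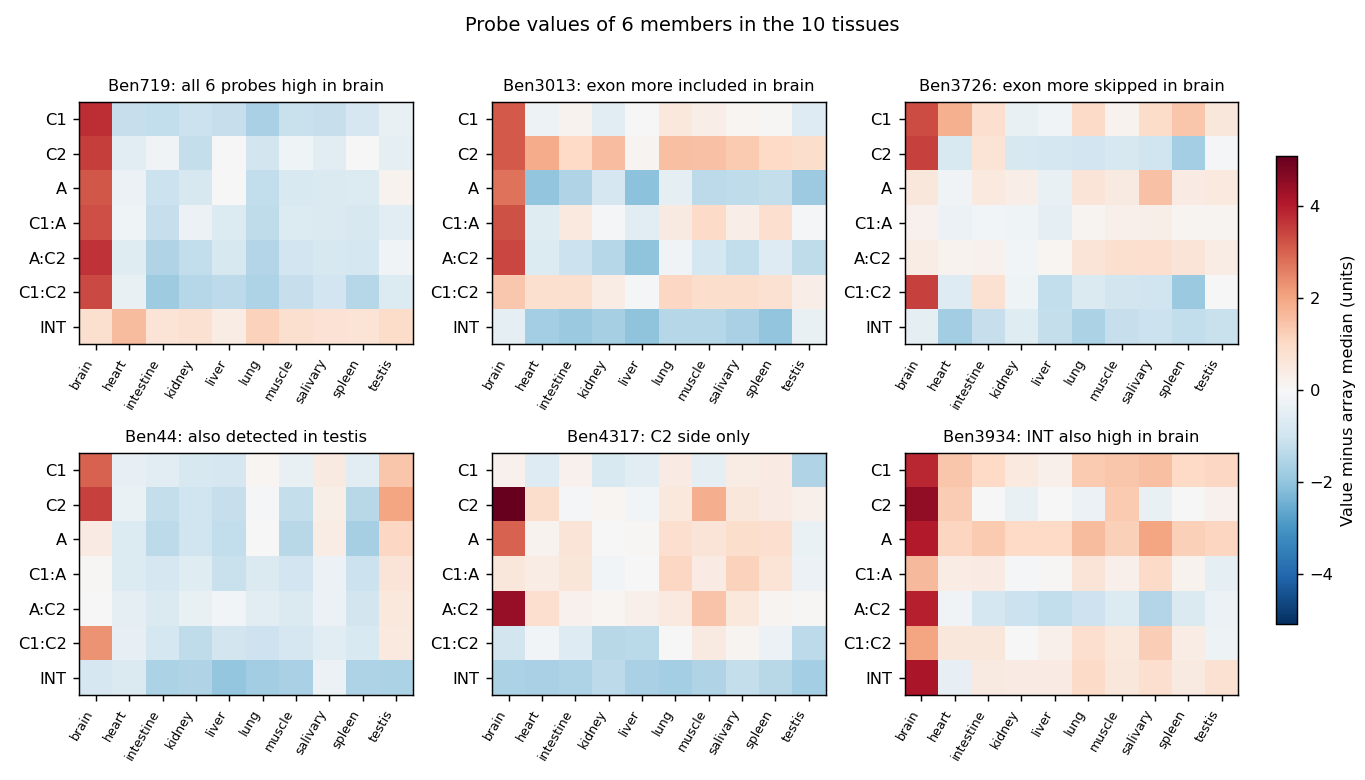
Values of the 7 probes (rows, units relative to the array median) of 6 members in the 10 tissues (columns, 1 pooled sample each). In Ben719 all exon and junction probes are high in brain, in Ben3013 the exon and its junctions, in Ben3726 and Ben44 the flanks and the skipping junction, in Ben4317 the C2 side, and in Ben3934 INT as well.

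The 2 flanks did not always move together. Both were past the margin in 62 members, C1 alone in 22, C2 alone in 25 and neither alone in 3, and in 11 members a flank was highest outside brain. The margins of C1 and C2 had a Pearson's r of 0.11 over the 112 members, a value that the choice on their mean affects. C1 exceeded C2 in margin by 2 units or more in 5 members, and C2 exceeded C1 in 8.

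Among the 25 members with only C2 past the margin, A was past it in 18 and A:C2 in 15, and C1:A in 11 and C1:C2 in 8. Among the 22 with only C1 past it, A was past it in 8, C1:A in 7, C1:C2 in 6 and A:C2 in 5. The members with both flanks past it had A past it in 33 of 62 and C1:C2 in 37. Over all events, whatever their flanks, the shares were 3.49% for A, 3.13% for C1:A, 3.58% for A:C2 and 2.75% for C1:C2. Shares over events with only 1 flank past the margin were not computed, and the choice on C1 and C2 shapes these groups. The differences between the groups are therefore not read as a trait of either side.

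Ben4317 was the extreme on the C2 side. C2 was 5.07 in brain and 1.84 in muscle, A was 3.01 in brain and at most 0.91 elsewhere, and A:C2 was 4.44 in brain and at most 1.44 elsewhere. C1 was 0.23 in brain and 0.41 in lung, C1:A was 0.58 in brain and 1.16 in salivary, and C1:C2 was -0.95 in brain and 0.46 in muscle. A, C2 and the junction between them were highest in brain, and neither C1 nor any junction of C1 was.

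On the C1 side, Ben2124 had C1 at 4.59 in brain and at most 0.72 elsewhere, while C2 was -0.22 in brain and 0.02 in salivary. None of its other probes was highest in brain: A was 0.36 in brain and 0.42 in salivary, and C1:C2 was -1.86 in brain, the lowest of all 10 tissues. Ben3749 had C1 at 5.02 in brain and at most 0.64 elsewhere, with A at -1.36 in brain and -0.72 in kidney and C1:C2 at 1.40 in brain and 2.01 in salivary. In these 2 members C1 alone was past the margin, and the alternative exon and all 3 junctions were highest outside brain.

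Several members had a junction probe that was highest in a tissue where the level was low. The C1:A probe of Ben2253 was -2.17 in brain, against 1.62 in spleen and 1.52 in muscle and at most -1.52 in the other 7 tissues, although its A:C2 probe was 1.49 in brain and at most -0.98 elsewhere. The C1:A probe of Ben1960 was also highest in muscle and spleen, at 0.28 and 0.27, against -0.76 in brain and at most -1.97 in the other tissues. In Ben2008 the C1:A probe was 0.30 in brain, against 3.52 in testis and 1.98 in lung.

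In Ben2986 both junctions that start in C1 were highest in testis. C1:A was 1.97 in brain and 4.65 in testis, and C1:C2 was 1.78 in brain and 4.13 in testis, but A was 1.01 in brain and -0.54 in testis. Ben1353 had the same order, with C1:A at 1.27 in brain and 2.96 in testis, C1:C2 at 0.94 in brain and 3.33 in testis, and A at 1.14 in brain and -1.35 in testis. In Ben3129 C1:C2 was 0.91 in brain and 3.62 in testis, while its C1:A was 1.67 in brain and -1.22 in testis. The junction values in testis were thus not accompanied by high A values in Ben2986 and Ben1353. Over the 9 tissues other than brain, the median Pearson's r of C1:A with C1:C2 was 0.65 among members, against 0.38 for A:C2 with C1:C2 and 0.34 for C1:A with A:C2, and 0.74, 0.63 and 0.71 over all events. C1:A and C1:C2 both hold the end of C1, and A:C2 and C1:C2 the start of C2. In 102 of the 112 members the flanks were not both detected in any of these 9 tissues, which limits the values among members. Other pairs were also lower among members than over all events. C1 with C2 had a median of 0.41 among members and 0.82 over all events, and C1 with C1:C2 had 0.32 and 0.71. What the shared exon end contributes was not tested.

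The lowest A:C2 margins were those of Ben752, at 0.89 in muscle against -0.56 in brain, and Ben973, at -0.92 in kidney against -2.19 in brain. In Ben973 A, too, was at -2.19 in brain, the floor of that array, while C1 was 3.71 in brain and 2.05 in testis.

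INT was the probe least tied to the members. Ben3934 was the single member with INT past the margin, although the members chosen without testis held 3 (2.19%), those without liver 2 (1.77%) and those without salivary 2 (1.63%). Its INT value was 4.17 in brain, against 0.99 in lung and between -0.43 and 0.87 in the other tissues. This event also had the highest level of all members, the widest A:C2 margin, at 3.96 in brain and at most -0.18 elsewhere, and A at 4.05 in brain against 2.02 in salivary. The next INT margin was 0.89, in Ben2226. The lowest were in Ben3024, with INT at 0.75 in brain and 3.30 in testis, and Ben502, with 0.42 in brain and 2.65 in intestine. In Ben3024 A and both inclusion junctions were past the margin in brain, so its INT probe and its exon probes had their highest values in different tissues.

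Among the members, 4 of 672 exon and junction values in brain and 198 of 6048 in the other 9 tissues were listed at 0 before centring. A value at the floor has no order among others at the floor, and margins against such values are limited by it.

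Set beside the 2 longest lists otherwise made by the same rule, the brain list had lower shares of each exon and junction probe past the margin in its own tissue. A was past it in 52.7% of the brain-restricted events, 66.3% of the testis-restricted and 66.7% of the liver-restricted ones. For C1:A the shares were 43.8% in the brain list, 61.1% in the testis list and 66.7% in the liver list, and for C1:C2 they were 45.5% in the brain list, 59.9% in the testis list and 62.1% in the liver list. All 6 probes were past it in 11.6% of the brain list, 33.7% of the testis list and 30.3% of the liver list. All 3 junctions were past it in 18.8% of the brain list, 39.3% of the testis list and 37.9% of the liver list. The shares past the margin over all events were not computed for testis and liver. Over all events A was highest in brain in 13.2%, in testis in 20.7% and in liver in 13.8%. The lower shares are therefore not read as a trait of the brain list.

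The median level margin was 1.502 in the brain list, 1.68 in the testis list and 1.61 in the liver list, and the flanks were detected in the list's own tissue in 76.8% of the brain list, 89.7% of the testis list and 97% of the liver list. The part of these differences in level in the probe shares was not tested. The share of exons called more skipped was 12.5% in the brain list, 12.7% in the testis list and 13.6% in the liver list, and that of exons called more included was 8.04% in the brain list, 5.56% in the testis list and 4.55% in the liver list. With 1 sample per tissue none of these differences between lists could be tested.

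**Figure D5:**
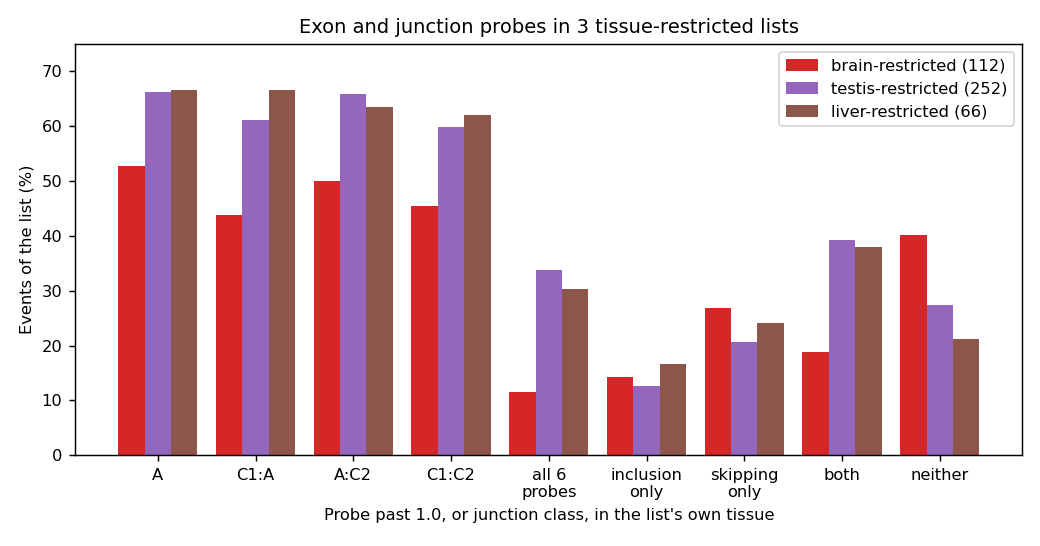
Share of events (%) in the brain-restricted (112), testis-restricted (252) and liver-restricted (66) lists whose probes were past the margin of 1.0 in the list's own tissue, and in each junction class. The brain bars are lowest for A, the 3 junctions, all 6 probes and both kinds of junction, and highest for the class with neither, at 40.2%. Brain is also highest for the skipping-only class, at 26.8% against 20.6% in the testis list and 24.2% in the liver list. For the inclusion-only class the brain list, at 14.3%, lies between the testis list (12.7%) and the liver list (16.7%).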

How the data were processed

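Pooled total RNA of 10 mouse tissues was measured on a splicing microarray, 1 sample per tissue. The authors deposited each value as a score of unstated base that never fell below 0. How arrays were scanned, background-corrected and normalized is not given in the sources used here.

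Each array was centred on its median. An event's level was the mean of its C1 and C2 values, and a margin was the brain value minus the highest of the other 9 tissues. The junction index subtracted C1:C2 from the average of both inclusion junctions, and the body index subtracted the level from A. Exons were called where the index in brain departed from the median of the other tissues by 4 robust SDs (median absolute deviation times 1.4826, which gave 1.61 units) and the departure of the body index had the same sign. Flanks counted as detected when both exceeded the 95th percentile of INT values on the same array.

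No p-value or model could be had from 1 sample per tissue, and precision is limited by the number of arrays. The members and lists were chosen with earlier results of these data known. Events were named at the 2 highest and 2 lowest members of 10 measures (level margin, brain level, the margins of A, C1:A, A:C2, C1:C2 and INT, the deviations of both indices, and the C1 margin minus the C2 margin) and at both sides of the membership threshold. The other events named were chosen after their values were seen, and so was the comparison of brain with single tissues. The table pairs no gene names, sequences or positions with event numbers, so marker lists were not applied and the brain label was not checked against marker genes. Alternatives were quantile normalization, columns without centring, other margins, each tissue left out in turn, both flanks past the margin, filters on low values and other index thresholds. The choice of members and the junction classes were checked on simulated data. The more included and more skipped calls by the index were not checked in this way. The software was matplotlib 3.10.9 and scipy 1.17.1 with pandas 2.3.3, under numpy 2.4.6 and Python 3.11.15.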

Additional observations from a re-analysis of the deposited data

How the results depend on the processing

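The number of brain-restricted events was 207 at a margin of 0.5, 56 at 1.5, 33 at 2.0 and 62 with C1 and C2 each past 1.0. Leaving out each other tissue in turn gave 113 (without liver or without spleen) to 137 (without testis). At a margin of 0.5, INT was past it in 9.18% of members. At 1.5, A was past it in 39.3%. At 2.0 the shares were 39.4% for A, 33.3% for C1:A, 39.4% for the skipping junction without both inclusion junctions, 6.06% for all 3 junctions and 21.2% for exons called more skipped. With both flanks past 1.0, C1:C2 was past it in 59.7%. More skipped exons made up 20.5% of members at an index threshold of 3 robust SDs. When the index was compared only with tissues where the flanks were detected, 0.893% of members were called more included and 1.79% more skipped, since fewer members then had a comparator. The cause of the other shifts was not tested. The share of more included exons, 8.04% as reported, was 12.5% at 3 robust SDs and 4.46% at 5. The share with INT past the margin, 0.893% as reported, was 1.79% at a margin of 1.5, 3.03% at 2.0 and 1.61% with both flanks past 1.0, each from 1 member, and 0.826% to 2.19% with a tissue left out. These shares lay within the exact 95% binomial interval of the reported share, which covers counting error only and was the limit used for shares, while a factor of 1.5 was used for the number of members. By those limits 15 values moved and 170 did not. No paired analysis was possible because there was 1 sample for each tissue, and the labels give no replicate numbers.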
